A study of Mus musculus with 8 samples.

Results

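The transforming growth factor beta (TGF-beta) core pathway was followed in retinas of mice with choroidal neovascularization (CNV), a disease model in which choroidal vessels invade the space beneath the retina. Its 10 members were chosen by gene symbol from the 25477 genes of the count table: the ligands Tgfb1, Tgfb2 and Tgfb3, the receptors Tgfbr1 and Tgfbr2, the co-receptor Eng, and Smad2, Smad3, Smad4 and Smad7. All 10 were found and all 10 had enough counts to be tested. Polyadenylated RNA was sequenced from 4 retina samples whose genotype is given as PD-L1 knockout (titles KO-CNV, here knockout 1 to 4) and 4 whose genotype is given as control (titles WT-CNV, here control 1 to 4). Both groups carry CNV in their titles, so the comparison is of genotypes within the diseased retina, and the set has no uninjured eye. The strain, age, way and time of induction, and whether each sample was 1 animal or a pool, are not stated by the labels. The p-values therefore cover the spread among these 8 samples alone, part of which may be technical.

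TGF-beta is secreted in a latent form, bound to its own propeptide, and must be released before it can bind cells. The released dimer binds the type II receptor, encoded by Tgfbr2, which then phosphorylates the type I receptor, encoded by Tgfbr1. The type I receptor phosphorylates Smad2 and Smad3, which join Smad4 and enter the nucleus, while Smad7, itself induced by the pathway, blocks the receptor. In the retina the pathway is known for keeping vessels stable and for holding microglia, the resident macrophages, in their resting state.

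The libraries held 31743404 to 36438248 counts, so that 1 count was worth 0.028 to 0.0314 CPM (counts scaled to library size). Rod photoreceptor markers, the main cell type of the retina, summed to 37200 to 54500 CPM in knockout and 37600 to 49200 CPM in control libraries. Cd274, the gene of PD-L1, averaged 0.335 ± 0.0758 CPM in knockout and 4.48 ± 0.544 CPM in control libraries (SD, n = 4 each), a difference with p = 0.0286 in an exact permutation test (two-sided, 70 arrangements, its lower limit), and no library went against its label. Knockout 3 and controls 2 and 3 contained lens transcript, with lens markers at 2450, 5750 and 1640 CPM against 11.2 to 49.5 CPM in the other 5 libraries. Control 4 lay nearer to the knockouts than the other controls did on the first principal component. For the members and pathway genes named as having passed, the calls that end without these libraries are given with and without them. Leaving out control 4 raised the calls among the members from 1 to 4, and those in most lists of other pathway genes as well. The calls over all tested genes also moved widely with the library left out, over the range given with the sensitivity results. Values without control 4 are therefore no separate support for a member.

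Retinas lacking PD-L1 carried more Tgfbr2 transcript in the fit of all 8 libraries, and no other member passed the test. The Tgfbr2 call held in 9 of 22 alternative fits and was lost in 13. Of the 10 members, 1 rose, none fell and 9 did not pass (edgeR quasi-likelihood test, Benjamini-Hochberg adjusted p under 0.05 over 16861 genes). Over all tested genes 2.55% passed, 1.2% being higher and 1.35% lower in the knockout, so 1 call among 10 members is a small count. The median log2 fold change (knockout over control) was 0.3 over the members and 0 over all tested genes. Of the members 8 were positive, among them Smad2, which rounds to 0, and 2 were negative, where 49.8% of all tested genes were positive. At an unadjusted p under 0.05 there were 4 members, Tgfb2, Tgfb3, Tgfbr2 and Smad3, against 21.3% of all genes. For Tgfb2, Tgfb3 and Tgfbr2 the 4 knockout values lay wholly above the 4 control values, as was the case for 5.19% of tested genes; 5.78% lay wholly below.

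**Figure D1:**
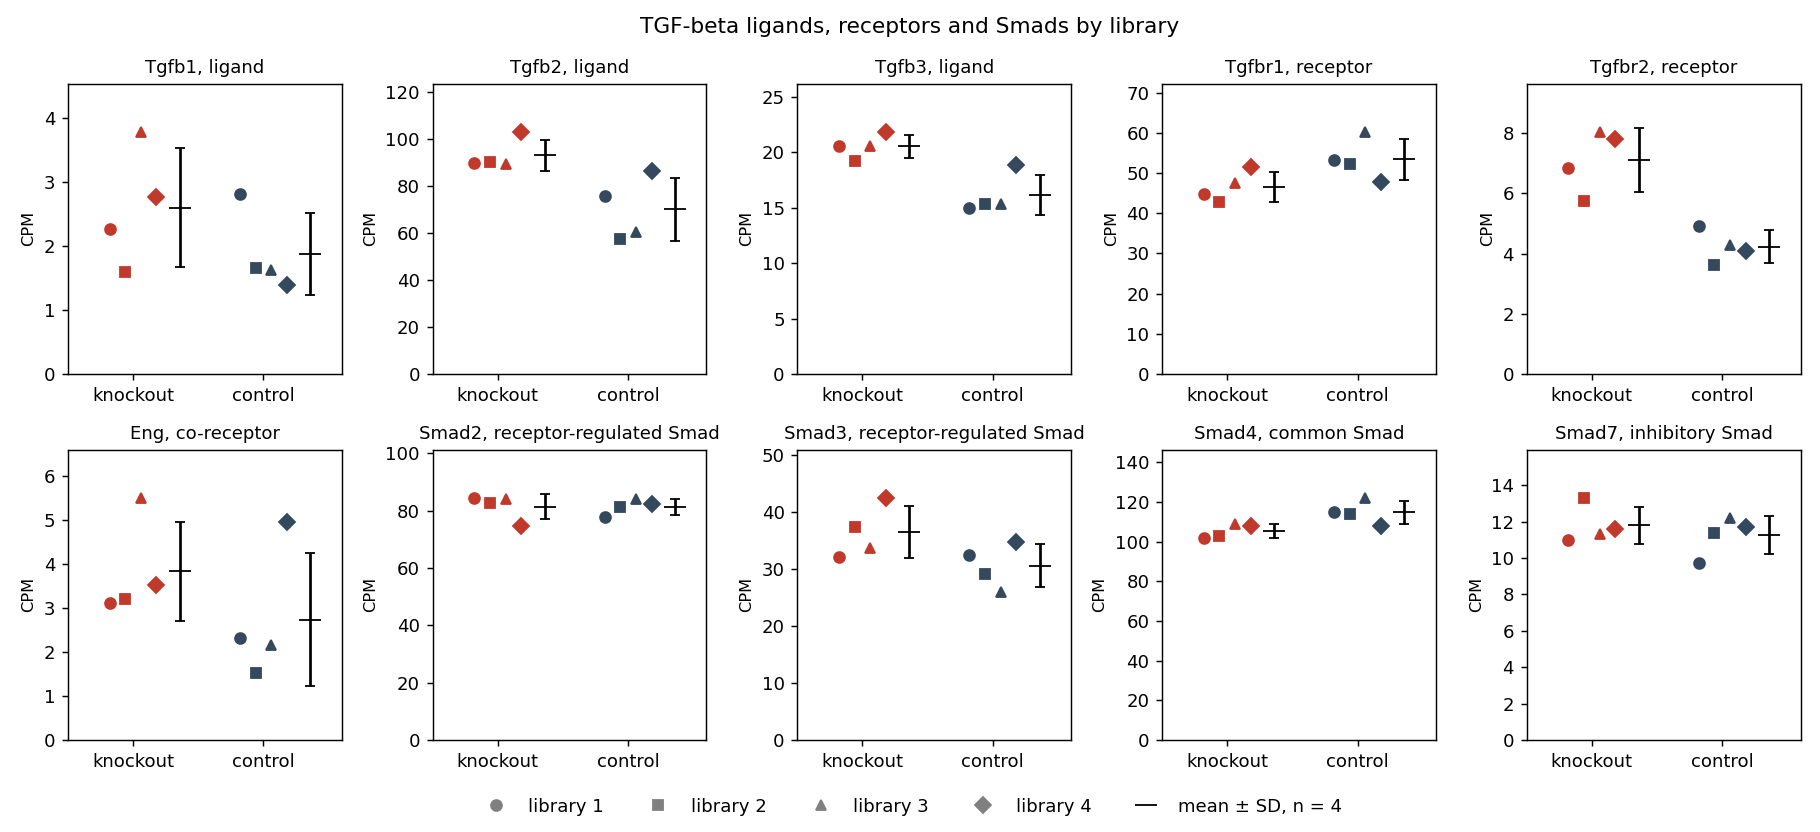
Level of each member in CPM (y axis, from 0, a scale of its own in each panel) in the 4 knockout and 4 control libraries (points, with a marker shape per library number) and the mean ± SD of each group. The groups are apart for Tgfb2, Tgfb3 and Tgfbr2 and overlap for the other 7 members.

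Levels can be compared between genes only per length, for which the deposited FPKM (fragments scaled to gene length and library total) were used. Smad4 was the most abundant member in both groups, at 13.9 ± 0.314 FPKM in knockout and 14.9 ± 0.794 FPKM in control libraries (SD, n = 4 each). Tgfb2 came second in the knockout, with its range apart from Tgfbr1 below it, whereas in the control the ranges of Tgfb2 and Tgfbr1 overlapped. These levels depend on the length taken for each gene. The lengths behind the FPKM ranged from 0.436 (Tgfb1) to 2.05 (Smad4) times the exon bases of GENCODE, with 0.585 for Tgfbr2 and 1.61 for Smad2. With GENCODE exon bases as the length, a choice made after seeing the data, Smad4 and Tgfb2 came first and second in both groups. Smad2 then stood above Tgfbr1 on average in both groups, with overlapping ranges in the control. Eng, Tgfbr2 and Tgfb1 were again the lowest 3. The order that follows is that of the deposited FPKM. Smad3, Tgfb3 and Smad2 followed at 5.79 to 6.65 FPKM on average in the knockout and 4.73 to 5.7 FPKM in the control, with ranges that overlapped between neighbours in either group. Smad7 lay apart from them at 2.67 ± 0.219 FPKM in knockout and 2.52 ± 0.224 FPKM in control libraries. The lowest were Tgfbr2, Tgfb1 and Eng, at 1.07 to 1.49 FPKM on average in the knockout and 0.76 to 0.877 FPKM in the control, and neighbours among these could not be ordered beyond their spread.

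Among the ligands, Tgfb2, known as a main isoform of neural retina, had the highest level per length. Tgfb2 (Entrez gene 21808, GRCm38 chromosome 1, 186622787 to 186709697) stood at 89.7, 90.1, 89.5 and 103 CPM in knockouts 1 to 4 and at 75.9, 57.4, 60.6 and 86.4 CPM in controls 1 to 4. The groups did not overlap, but control 4 came close to the knockouts while controls 2 and 3, the lens-containing ones, were the lowest. Its log2 fold change of 0.41 (95% interval 0.14 to 0.67, SE 0.12) did not pass, with an edgeR adjusted p of 0.0887. Without control 4, the control nearest to the knockouts, it was 0.53 (adjusted p = 0.00379), but that fit also called more pathway genes. Without knockout 3 and controls 2 and 3 it was 0.22 (adjusted p = 0.72).

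Tgfb3 (Entrez gene 21809, chromosome 12, 86056743 to 86079041), a ligand that signals through the same receptors, had lower levels than Tgfb2. It stood at 20.5, 19.2, 20.5 and 21.8 CPM in knockouts 1 to 4 and at 15, 15.3, 15.3 and 18.8 CPM in controls 1 to 4. Controls 1 to 3 were close together and control 4 was the nearest to the knockouts. With an edgeR adjusted p of 0.109, the log2 fold change of 0.35 (95% interval 0.1 to 0.59, SE 0.11) did not pass. It was 0.43 without control 4 (adjusted p = 0.00993), in a fit that also called more pathway genes. Tgfb3 shares 7.6% and 4.8% of its exon bases with 2 genes on the opposite strand in the GENCODE annotation, Tgfb2 2.1% with an antisense gene and Eng 1.5% with Fpgs, and no source used here states whether counting used strand, so reads there cannot be told apart. With the trend of each library with GC content and gene length taken out, the value was 0.23 (adjusted p = 0.239).

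Tgfb1 (Entrez gene 21803, chromosome 7, 25687002 to 25705077), the ligand most tied to immune cells and platelets, was scarce. It held 80, 55, 135 and 97 counts in knockouts 1 to 4 and 90, 53, 53 and 47 in controls 1 to 4, or 2.26, 1.59, 3.78 and 2.77 CPM in the knockouts and 2.82, 1.66, 1.63 and 1.39 CPM in the controls. The groups overlapped, with control 1 above 3 of the 4 knockouts. The log2 fold change of 0.47 had an interval from -0.21 to 1.16 (SE 0.32, edgeR adjusted p = 0.404), so a change of that size could not be resolved at this depth and spread. It was 0.24 without knockout 3, 0.74 without control 1 (adjusted p = 0.766 and 0.295) and 0.08 without knockout 3 and controls 2 and 3 (adjusted p = 0.98).

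The balance of the 3 ligands is given as values with no test. Per length, their sum was 18.2 ± 1.25 FPKM in knockout and 13.8 ± 2.07 FPKM in control libraries (SD, n = 4 each), with 16.9 to 19.9 FPKM in the knockouts and 11.8 to 16.2 FPKM in the controls. Tgfb2 made up 60.2 ± 2.05% of that sum in the knockout and 59.1 ± 2.84% in the control. Tgfb3 made up 33.4 ± 0.759% in the knockout and 34.6 ± 3.26% in the control, and Tgfb1 6.48 ± 2.15% in the knockout and 6.24 ± 2.01% in the control. With GENCODE exon bases as the length, Tgfb1 made up 2.27 ± 0.797% in the knockout and 2.19 ± 0.722% in the control, and Tgfb2 71 ± 1.26% in the knockout and 69.9 ± 2.62% in the control.

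Among the receptors, Tgfbr2 was the member that rose. Tgfbr2 (Entrez gene 21813, chromosome 9, 116087695 to 116175363) encodes the receptor that binds the ligand first. It held 242, 198, 287 and 273 counts in knockouts 1 to 4 and 157, 115, 139 and 138 in controls 1 to 4. Scaled to library size these were 6.84, 5.73, 8.03 and 7.8 CPM in the knockouts and 4.92, 3.61, 4.28 and 4.08 CPM in the controls. The lowest knockout was above the highest control, and control 4 lay among the other controls, unlike for Tgfb2 and Tgfb3. On the log2 scale the rise was 0.75 (95% interval 0.37 to 1.12, SE 0.17, edgeR adjusted p = 0.0429), that is 1.68-fold. The call had little margin: it ended without any single library other than control 4 (adjusted p = 0.0507 without knockout 2 to 0.155 without knockout 3), although the log2 fold change stayed at 0.69 to 0.83 in all 8 such fits. It also ended without knockout 3 and controls 2 and 3 together (log2 fold change 0.6, adjusted p = 0.628), on log2(FPKM + 1) values with limma (0.41, adjusted p = 0.0525) and with the GC content and length trends taken out (0.71, adjusted p = 0.0529).

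Tgfbr1 (Entrez gene 21812, chromosome 4, 47353222 to 47414926), which encodes the partner that carries the signal to Smad2 and Smad3, did not share that direction. It stood at 44.8, 42.8, 47.6 and 51.4 CPM in knockouts 1 to 4 and at 53.2, 52.3, 60.2 and 47.9 CPM in controls 1 to 4. Control 4 was again among the knockouts, and controls 1 to 3 were above every knockout. With a log2 fold change of -0.2 (95% interval -0.4 to 0.01, SE 0.09), it missed the threshold (edgeR adjusted p = 0.252). Per length, Tgfbr2 amounted to 0.205, 0.18, 0.226 and 0.203 of Tgfbr1 in knockouts 1 to 4 and to 0.124, 0.0926, 0.0954 and 0.114 of it in controls 1 to 4. This ratio averaged 0.204 ± 0.0188 in the knockout and 0.106 ± 0.015 in the control (SD, n = 4 each) and did not overlap between the groups. With GENCODE exon bases as the length it averaged 0.121 ± 0.0113 in the knockout and 0.0634 ± 0.00898 in the control, again without overlap. It is a ratio of values already shown and was not tested separately.

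**Figure D2:**
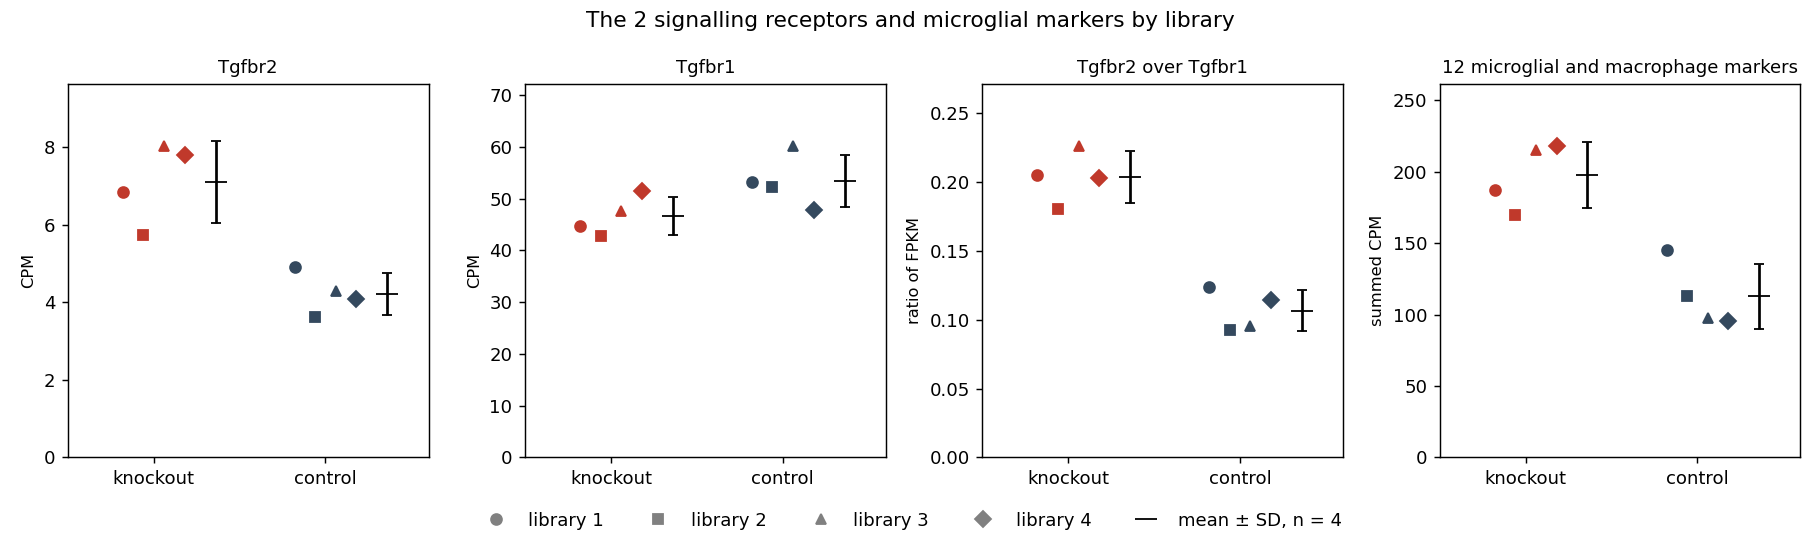
Tgfbr2 and Tgfbr1 in CPM, the ratio of their FPKM, and the summed CPM of 12 markers of microglia and macrophages (y axes from 0) in the 4 knockout and 4 control libraries, with mean ± SD. Tgfbr2, the ratio and the marker sum are higher in every knockout than in every control library, while Tgfbr1 overlaps.

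Eng (Entrez gene 13805, chromosome 2, 32646595 to 32682669) encodes endoglin, a co-receptor of proliferating endothelium that binds TGF-beta and bone morphogenetic proteins (BMPs). It stood at 3.11, 3.19, 5.49 and 3.51 CPM in knockouts 1 to 4 and at 2.32, 1.51, 2.16 and 4.94 CPM in controls 1 to 4. Controls 1 to 3 were below every knockout, and control 4 was above 3 of them. The fitted log2 fold change was 0.48 (95% interval -0.25 to 1.21, SE 0.34, edgeR adjusted p = 0.423). Without control 4, in the fit that also called more pathway genes, it was 0.94 (adjusted p = 0.0302). It was 0.26 without knockout 3 and 0.29 without control 2 (adjusted p = 0.765 and 0.68). Without knockout 3 and controls 2 and 3 it was -0.15 (adjusted p = 0.947), so its direction depended on these libraries. The 12 endothelial markers summed to 295, 297, 318 and 319 CPM in knockouts 1 to 4 and to 262, 218, 221 and 304 CPM in controls 1 to 4, with control 4 the highest control as for Eng. Most of this sum was Kdr and Flt1, at 168 and 91 CPM on average in the knockout and 141 and 78.2 CPM in the control. The sum therefore says little about the other markers. All 12 markers were positive and 1 passed, Vwf, von Willebrand factor (log2 fold change 1.58, edgeR adjusted p = 0.0444), where 1.2% of all tested genes were higher. Their part in the Eng values was not tested.

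The 300 bases around the start sites of Tgfbr2, Tgfb2 and Tgfbr1 are shown because Tgfbr2 and Tgfb2 lay higher in every knockout library and Tgfbr1 did not. They run from 250 bases before to 50 bases from the start in RefSeq (GRCm38.p6), where 6 of the 10 members had an entry. Tgfb3, which also lay higher in every knockout library, had no entry and is not shown. The Tgfbr2 promoter is chr9:116175314-116175613 (minus strand), the Tgfb2 promoter chr1:186705940-186706239 (minus strand), whose start lies 3708 bases inside the outermost start of the gene, and the Tgfbr1 promoter chr4:47352972-47353271 (plus strand). Capitals mark matches on either strand to 5 short motifs, which do not overlap here. The TATA box, searched as TATAAA, and the CCAAT box are common promoter elements. The GC box, searched as GGGCGG, is bound by Sp1. The Smad box, searched as CAGAC, is the short element that Smad3 and Smad4 bind. The E-box was searched as CACGTG.
Tgfbr2: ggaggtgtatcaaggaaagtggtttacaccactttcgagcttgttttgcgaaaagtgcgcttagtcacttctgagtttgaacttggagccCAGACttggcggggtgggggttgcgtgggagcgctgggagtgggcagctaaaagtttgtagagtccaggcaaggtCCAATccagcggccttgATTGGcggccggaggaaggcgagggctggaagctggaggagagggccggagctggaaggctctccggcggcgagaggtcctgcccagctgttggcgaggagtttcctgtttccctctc
Tgfb2: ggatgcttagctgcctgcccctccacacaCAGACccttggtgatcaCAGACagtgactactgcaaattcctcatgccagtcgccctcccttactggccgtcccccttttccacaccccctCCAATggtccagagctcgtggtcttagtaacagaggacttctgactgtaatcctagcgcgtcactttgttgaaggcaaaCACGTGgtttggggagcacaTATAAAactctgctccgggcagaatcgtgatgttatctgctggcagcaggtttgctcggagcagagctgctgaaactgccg
Tgfbr1: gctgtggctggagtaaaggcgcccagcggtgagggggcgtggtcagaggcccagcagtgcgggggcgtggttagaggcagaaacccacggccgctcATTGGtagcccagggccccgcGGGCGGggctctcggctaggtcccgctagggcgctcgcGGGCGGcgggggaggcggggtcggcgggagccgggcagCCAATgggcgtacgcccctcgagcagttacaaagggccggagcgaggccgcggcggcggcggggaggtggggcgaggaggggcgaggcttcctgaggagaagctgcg

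The 3 windows differ in composition and in the letters found. The Tgfbr1 window is 74.7% G and C and holds 2 GC boxes and 2 CCAAT boxes, but no Smad box. The Tgfbr2 window is 59% G and C and holds 2 CCAAT boxes and 1 Smad box, with no TATA box and no GC box. The Tgfb2 window is 54.3% G and C and holds a TATA box from 31 to 26 bases before the start, an E-box, 1 CCAAT box and 2 Smad boxes. Over all 32851 RefSeq promoter windows, 49.6% hold a Smad box, 37.4% a CCAAT box, 35.7% a GC box, 13.6% a TATA box and 7.15% this E-box on either strand. A match is a description of the letters and no evidence of binding.

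Of the Smads, which carry the signal to the nucleus, none passed the test. Smad2 averaged 81.4 ± 4.49 CPM in knockout and 81.3 ± 2.69 CPM in control libraries (SD, n = 4 each), with a log2 fold change of 0 and an interval from -0.16 to 0.17 (edgeR adjusted p = 0.992). Smad3, its close relative, which unlike Smad2 binds DNA directly, stood at 32.2, 37.4, 33.8 and 42.5 CPM in knockouts 1 to 4 and at 32.5, 29.2, 26 and 34.7 CPM in controls 1 to 4. The groups overlapped, and the log2 fold change was 0.26 (95% interval 0 to 0.51, SE 0.12, edgeR adjusted p = 0.229).

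Smad4, the partner common to TGF-beta and BMP signals, stood at 102, 103, 109 and 108 CPM in knockouts 1 to 4 and at 115, 114, 122 and 108 CPM in controls 1 to 4. Controls 1 to 3 were above every knockout and control 4 lay within the range of the knockouts. The log2 fold change was -0.12 (95% interval -0.28 to 0.04, SE 0.07, edgeR adjusted p = 0.367). Smad7, the inhibitor that the pathway itself induces, averaged 11.8 ± 1.02 CPM in knockout and 11.3 ± 1.07 CPM in control libraries. Its log2 fold change was 0.06 (95% interval -0.2 to 0.33, SE 0.12, edgeR adjusted p = 0.796). The intervals of Smad2, Smad4 and Smad7 thus reach no further than 0.33 in either direction. Phosphorylation, by which Smad2 and Smad3 are activated, is not measured by transcript counts.

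**Figure D3:**
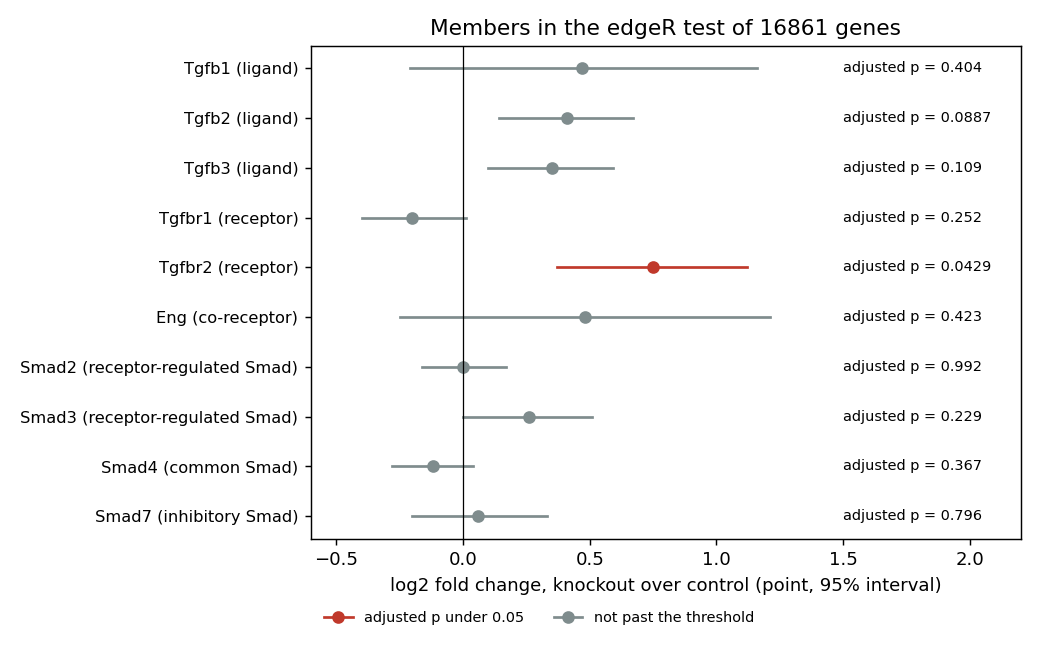
Log2 fold change of each member, knockout over control (point), with its 95% interval (line) and edgeR adjusted p. Tgfbr2, at 0.75, is the only member past the threshold, and the intervals of Tgfb2 and Tgfb3 lie above 0 without passing the adjustment over all genes.

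Microglia are among the cell types that express Tgfbr2, and the summed level of their markers was also higher in every knockout than in every control library. The 12 markers of microglia and macrophages, none of them at 0 in all libraries, summed to 187, 170, 215 and 218 CPM in knockouts 1 to 4 and to 145, 113, 97.8 and 95.5 CPM in controls 1 to 4. Of these markers 6 rose, none fell and 6 did not pass, where 1.2% of all tested genes were higher. Among those that did not pass, P2ry12 and Siglech had log2 fold changes of 0.03 and 0.13 (edgeR adjusted p = 0.954 and 0.795). Knockout 2 had the lowest sum and the lowest Tgfbr2 among the knockouts, and control 1 the highest of both among the controls. The other controls did not follow one order: control 2 had the lowest Tgfbr2 but the second highest sum, and control 4 the lowest sum. In whole retina, more cells of a type and more RNA per cell cannot be told apart. The part of microglia, endothelium or any other cell type in the Tgfbr2 result was not tested. Müller glia markers summed to 4340 to 5890 CPM in knockout and 4010 to 4980 CPM in control libraries, and pericyte and smooth muscle markers to 79.7 to 89.4 CPM in knockout and 82.4 to 98.4 CPM in control libraries, both with overlap. All 10 Müller glia markers were positive and 2 rose, Vim (0.62, edgeR adjusted p = 0.0171) and Crym (0.71, adjusted p = 0.0073), where 1.2% of all tested genes were higher. The 4 knockouts lay above the 4 controls for 4 of these markers, as was the case for 5.19% of tested genes. The sum of the Müller glia markers is mostly Glul. Pigment epithelium markers summed to 137 to 301 CPM in knockout and 78.4 to 185 CPM in control libraries, with overlap. Most of this sum was Ttr and Rgr, at 97.9 and 90.1 CPM on average in the knockout and 50.2 and 43.3 CPM in the control. Of the 9 markers, 7 were positive and 2 negative, Mlana (-0.86) and Pmel (-0.58). Only Rgr passed (1.06, edgeR adjusted p = 0.0444). Fibroblast markers summed to 29.7 to 39.8 CPM in knockout and 33.1 to 42 CPM in control libraries. Red blood cell markers were apart, at 1.68 to 4.03 CPM in knockout and 10.1 to 14.5 CPM in control libraries. The 4 platelet markers summed to 0.896 to 1.94 CPM in knockout and 1.22 to 2.31 CPM in control libraries.

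Around the core, 98 further genes of the pathway were tested in 8 lists, of which 6 rose, none fell and 92 did not pass, with a median log2 fold change of 0.11. Over all tested genes 1.2% were higher and 1.35% lower, with a median of 0. Of the 6 calls, 4 were in the microglial list given below, which shares genes with the microglial markers. Of 14 genes of latency and activation, 1 rose and 12 were positive (median 0.25). This was Thbs1, thrombospondin-1, a matrix protein that can release TGF-beta from its latent form and that also restrains vessel growth. Thbs1 stood at 9.27, 18.8, 14 and 15.8 CPM in knockouts 1 to 4 and at 10.6, 6.25, 6.1 and 4.61 CPM in controls 1 to 4, with knockout 1 below control 1. It rose by 1.07 on the log2 scale (SE 0.25, edgeR adjusted p = 0.045). Leaving out knockout 2, 3 or 4, or control 2 or 3, removed this call, with adjusted p-values of at most 0.136. It also ended without knockout 3 and controls 2 and 3 together (0.95, adjusted p = 0.583), on log2(FPKM + 1) values with limma (adjusted p = 0.0749) and with the GC content and length trends taken out (adjusted p = 0.0643).

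Of the genes that TGF-beta is known to induce, 1 passed the test. Among the 18 with enough counts, 10 were positive, 1 passed as higher and none as lower (median 0.06), where 1.2% of all tested genes were higher. An unadjusted p under 0.05 was reached by 4, against 21.3% of all tested genes. These were Timp1, Tgfbi (log2 fold change 1.03), Ccn1 (0.81) and Fn1 (0.47), the last 3 named after their values were seen. DESeq2 called 3 of the 18 and limma-voom 1, against 1392 and 480 of all 16861 genes. The gene that passed was Timp1, an inhibitor of matrix proteases that many inflammatory signals induce as well. Timp1 stood at 4.86, 2.78, 5.93 and 3.66 CPM in knockouts 1 to 4 and at 1.6, 2.04, 1.39 and 1.15 CPM in controls 1 to 4, with the groups apart. It rose by 1.48 on the log2 scale (SE 0.28, edgeR adjusted p = 0.0182), and leaving out knockout 3, control 1 or control 3 removed the call, with adjusted p-values of at most 0.0799. Without knockout 3 and controls 2 and 3 together it was 1.46 (adjusted p = 0.298).

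Among 13 microglial genes that depend on TGF-beta, 4 rose, none fell and 12 were positive, with a median of 0.51. Over all tested genes 1.2% were called higher and 49.8% were positive. Of these genes 6 are also among the microglial markers above, so the list is no separate measure of the pathway. The 9 that did not pass included P2ry12 (log2 fold change 0.03), Siglech (0.13) and Gpr34 (-0.08), the 1 negative gene. Which cells carried these transcripts in whole retina was not tested. Olfml3, a secreted matrix protein, averaged 18.8 ± 3.04 CPM in knockout and 8.6 ± 1.69 CPM in control libraries (SD, n = 4 each; log2 fold change 1.13, edgeR adjusted p = 0.00446) and kept its call in all 8 fits that left out 1 library, but not without knockout 3 and controls 2 and 3 together (0.93, adjusted p = 0.142). Cx3cr1, the fractalkine receptor, averaged 12.3 ± 2.11 CPM in knockout and 6.06 ± 1.82 CPM in control libraries (log2 fold change 1.02, edgeR adjusted p = 0.0245). Pros1, a ligand of phagocytic receptors, rose by 0.53 on the log2 scale (edgeR adjusted p = 0.0414). The calls of Cx3cr1 and Pros1 ended in most such fits (adjusted p up to 0.0949 and 0.138): in both cases without knockout 1, 3 or 4 or control 2 or 3, and for Pros1 also without control 1. Without knockout 3 and controls 2 and 3 together, Cx3cr1 was 0.72 (adjusted p = 0.531) and Pros1 0.47 (adjusted p = 0.563), and Pros1 also missed the threshold on log2(FPKM + 1) values with limma (adjusted p = 0.0657).

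No gene of the other 5 lists passed with edgeR. Over all 16861 tested genes, 2.55% passed with edgeR and 21.3% had an unadjusted p under 0.05. DESeq2 called 1392 of them and limma-voom 480, and the counts below are to be read against these. Among 10 co-receptors and related receptors, 3 had an unadjusted p under 0.05, and DESeq2 called 1 and limma-voom none. Acvr2a, an activin receptor, averaged 47.7 ± 4.48 CPM in knockout and 59.5 ± 4.93 CPM in control libraries (log2 fold change -0.32, edgeR adjusted p = 0.0872), and Acvr1 had a value of 0.29 (adjusted p = 0.18). Among the 4 other Smads, 1 had an unadjusted p under 0.05 and DESeq2 called 1 and limma-voom none. Smad5, a carrier of BMP signals, averaged 104 ± 5.6 CPM in knockout and 125 ± 11.5 CPM in control libraries (log2 fold change -0.27, edgeR adjusted p = 0.108), and Smad6 had a value of 0.5 (adjusted p = 0.394).

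Among 22 regulators of Smad signalling, 7 had an unadjusted p under 0.05, against 21.3% of all tested genes. DESeq2 called 2 of the 22, against 1392 of all 16861 genes, and limma-voom none. Nog, which encodes the BMP antagonist noggin, held 32 to 41 counts in the knockouts and 11 to 20 in the controls (log2 fold change 1.15, edgeR adjusted p = 0.0971). Usp15, a deubiquitinase that acts on the pathway, had a value of -0.24 (edgeR adjusted p = 0.109). Among 11 other ligands of the superfamily and 6 genes induced by BMP and by ALK1, the receptor that Acvrl1 encodes, none had an unadjusted p under 0.05 and neither DESeq2 nor limma-voom called any. Inhbb, Bmp7, Id4 and Atoh8 had values of 0.39, 0.27, 0.13 and 0.49 (edgeR adjusted p = 0.354, 0.301, 0.607 and 0.48).

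**Figure D4:**
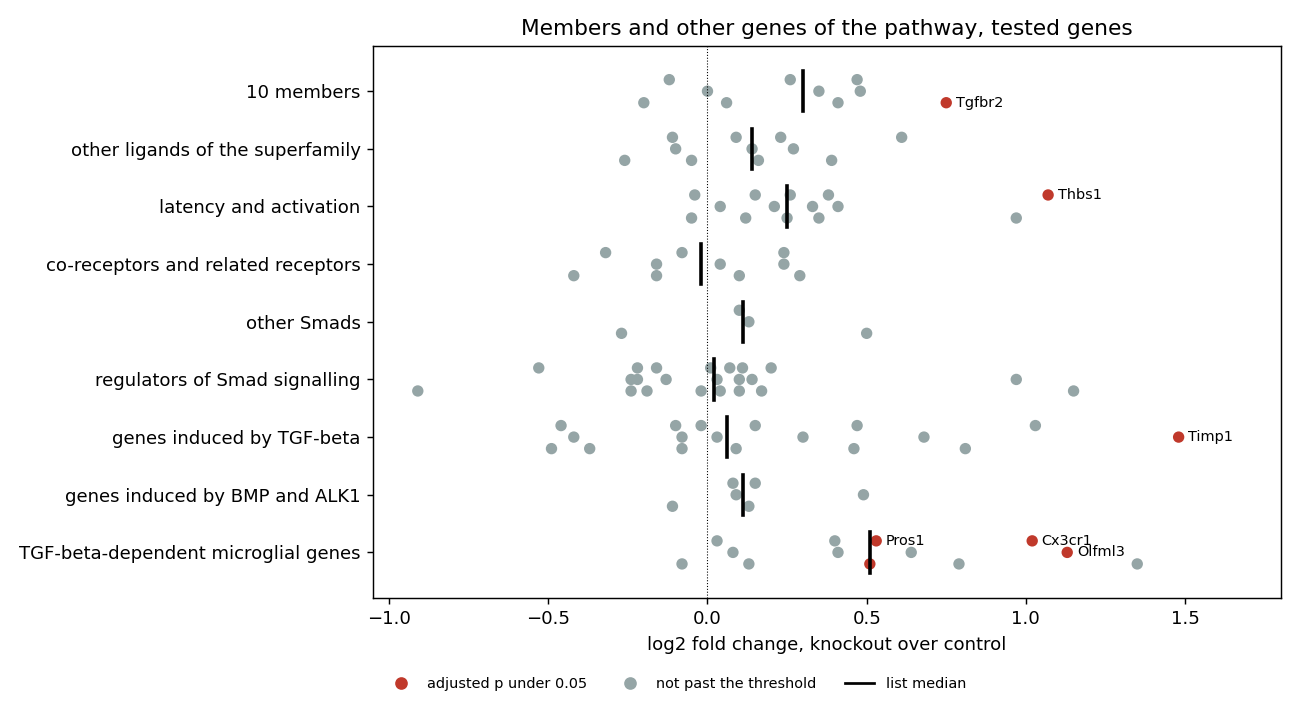
Log2 fold change, knockout over control, of each tested gene of the 10 members and of the 8 pathway lists (points, red where the edgeR adjusted p is under 0.05), with the list median as a bar. The named points are Tgfbr2, Thbs1, Timp1, Olfml3, Cx3cr1 and Pros1.

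The genes whose library profile was most like that of Tgfbr2 were Plin2, Ctsc and Slc39a11. Likeness was the root mean square difference between log2 CPM profiles centred on their means, over 8 libraries and 11915 genes of at least 5 CPM. The differences were 0.111 for Plin2, a lipid droplet protein, 0.125 for Ctsc, a lysosomal protease of immune cells, and 0.131 for Slc39a11, a zinc transporter, where the Tgfbr2 profile itself had a root mean square of 0.408. Plin2 averaged 9.64 ± 1.37 CPM in knockout and 6.19 ± 0.319 CPM in control libraries, and Ctsc 27 ± 3.33 CPM in knockout and 18.3 ± 2.84 CPM in control libraries (SD, n = 4 each). Since all 3 were picked for this profile, their difference between groups is a description.

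**Figure D5:**
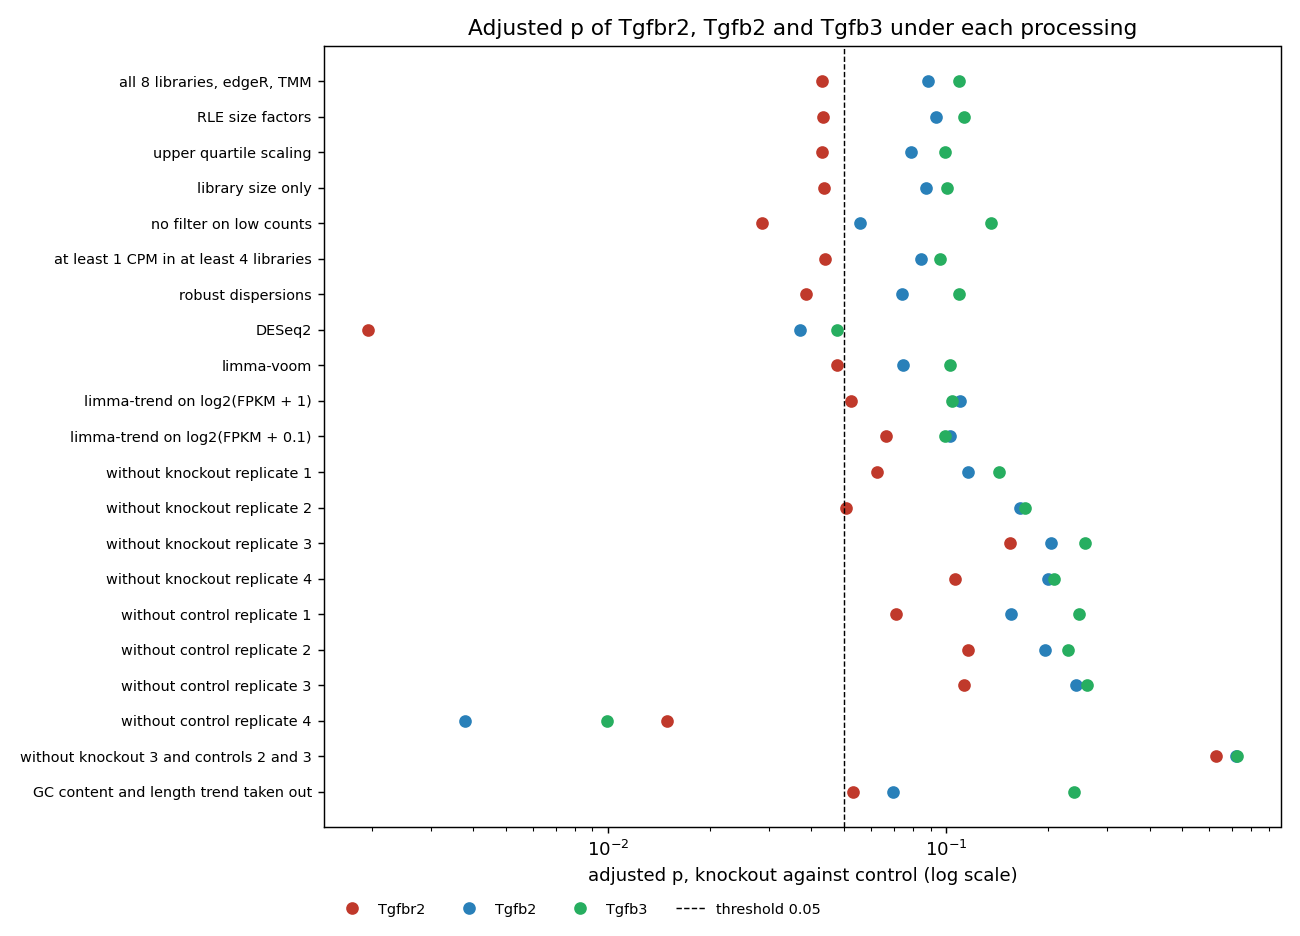
Adjusted p (x axis, log scale) of Tgfbr2, Tgfb2 and Tgfb3 in the comparison of knockout with control, with the threshold of 0.05 as a dashed line. Rows are the processings, without those that use a replicate block. Tgfbr2 crosses the line when most single libraries are left out, and Tgfb2 and Tgfb3 pass with DESeq2 and without control 4.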

How the data were processed

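Per the labels' protocols, TRIzol was used for total RNA and a VAHTS Universal V6 kit for the libraries. The submitters' processing notes name fastp, HISAT2, HTSeq and mm10; versions, annotation and strand setting were not found in the sources used. The deposited counts are whole reads per gene, not normalized, and the deposited FPKM equal those counts divided by library total and 1 length per gene. The test was run in edgeR 4.0.16 (R 4.3.3) with TMM scaling, filterByExpr (minimum count 10, minimum total count 15), and a quasi-likelihood test without covariates on 16861 genes, with two-sided p-values adjusted by Benjamini and Hochberg (threshold 0.05). SE is the absolute log2 fold change over the square root of F. CPM use TMM-adjusted library sizes. DESeq2 1.42.0, limma 3.58.1 and other alternatives are given with the sensitivity results. The edgeR step was tested on simulated data. Named pathway genes are, per list, up to 4 past the threshold, or otherwise the 2 with the smallest p; 1 gene this rule names is not reported here. Members and lists were chosen with earlier results of these data known. Positions and promoters are from RefSeq (GRCm38.p6), exon overlaps from GENCODE. Spreads and intervals do not cover PCR duplicates.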

Additional observations from a re-analysis of the deposited data

Results flagged for a closer look

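In 5 of 52 groups of 4 libraries, 1 library stood apart from the other 3 by Dixon's criterion, which chance meets in about 1 in 20 groups. Among the members, Tgfb2 in knockout 4 reached 103 CPM (89.5 to 90.1 CPM in its group otherwise), and Tgfb3 in control 4 reached 18.8 CPM (15 to 15.3 CPM otherwise). Among the other pathway genes, Inhbb in knockout 3 was at 5.26 CPM (3.69 to 3.93 CPM in the other knockouts), Acvr1 in knockout 1 at 12.6 CPM (14.6 to 14.9 CPM) and Cx3cr1 in knockout 2 at 9.15 CPM (13.3 to 13.4 CPM).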

How the results depend on the processing

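The count of members past the threshold was 1 and did not change with RLE, upper quartile or library-size scaling, without a filter, with a stricter one, with robust dispersions or with limma-voom. It was 3 with DESeq2 (Tgfb2, Tgfb3 and Tgfbr2) and ranged from 0 to 4 when 1 library was left out, with 4 only without control 4 (Tgfb2, Tgfb3, Tgfbr2 and Eng) and 0 without any other, where edgeR gave 3 or 4 members an unadjusted p under 0.05. It was 0 with limma on log2(FPKM + 1) and on log2(FPKM + 0.1) (3 unadjusted each), 0 with GC content and length trends taken out, a choice made after seeing the data (4 unadjusted), and 0 without knockout 3 and controls 2 and 3 (1 unadjusted). The other pathway genes past the threshold, 6 in number, were 14 with DESeq2, 1 to 16 with 1 library left out (16 without control 4) and 0 without the 3 lens-containing libraries (14 unadjusted). All genes past the threshold, 430 in number, were 690 without a filter, 1392 with DESeq2, 228 on log2(FPKM + 1), 108 to 3209 with 1 library left out and 15 without those 3 libraries; with library-size scaling 61.2% of the calls were higher in place of 47.2%. The title numbers gave same-numbered libraries correlations of 0.21, -0.04, 0.12 and 0.01, and 1 of 4 knockouts correlated best with its own number, so they are not taken as pairs. With the number as a replicate block, 0 members passed (4 unadjusted; Tgfbr2 adjusted p = 0.0653) and 228 of all genes; with the block and the GC and length correction, 0 members (4 unadjusted) and 232 genes. Directions turned for 4 genes: Smad2, 0 as reported, was 0 with RLE, the stricter filter and DESeq2, -0.02 without knockout 1 or control 1 and -0.01 without knockout 2 or 3 (up to 0.04 without knockout 4), Smad7 (0.06) was -0.01 without knockout 2 and -0.09 with the GC and length correction, with or without the block, and without the 3 lens-containing libraries Eng was -0.15 in place of 0.48 and Inhbb -0.03 in place of 0.39. The cause of these changes was not tested. Levels of Tgfb1, Tgfbr2 and Eng rest on 47 to 287 counts per library.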

Other observations

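Lrg1, whose secreted product binds endoglin and modifies TGF-beta signals in endothelium, was too low to test and is named after its values were seen. It held 27, 54, 20 and 6 counts in knockouts 1 to 4 and 4, 2, 3 and 5 counts in controls 1 to 4, so that the lowest knockout was 1 count above the highest control. Among the tested genes, which do not include Lrg1, the knockouts lay wholly above the controls for 5.19%. Scaled to library size, Lrg1 was at 0.763, 1.56, 0.56 and 0.171 CPM in the knockouts and at 0.125, 0.0628, 0.0924 and 0.148 CPM in the controls. The 3 fibrillar collagen genes among the genes that TGF-beta is known to induce, also named after their values were seen, did not pass the test. Col1a1 averaged 3.62 ± 0.459 CPM in knockout and 3.56 ± 0.706 CPM in control libraries, Col1a2 6.24 ± 1.9 CPM in knockout and 6.61 ± 1.18 CPM in control libraries, and Col3a1 5.09 ± 1.34 CPM in knockout and 7.16 ± 2.19 CPM in control libraries (SD, n = 4 each), the last with a log2 fold change of -0.49 (edgeR adjusted p = 0.27).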
